A study of Mus musculus with 8 samples.

Results

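Mouse embryonic fibroblasts lacking both VHL and FIH were compared with wild-type fibroblasts at the level of messenger RNA, and the comparison took 4 of the 8 arrays of the series: the 2 arrays titled as VHL/FIH null and the 2 titled as wild type. All cells were fibroblast lines immortalized with the large T antigen and grown at 21% oxygen in high glucose medium with 10% serum. The double null cells were made by infecting a line with both floxed genes with an adenovirus that carries Cre, which removes the floxed parts of VHL and FIH. VHL null and FIH null cells, 2 arrays each, were made the same way from lines of their own and serve below only to show where the double null cells stood apart. The labels do not say whether the wild-type cells received the virus or carried floxed alleles, so the deletions, the virus and the line of origin cannot be told apart. The 2 arrays of a group are called biological replicates without mention of separate embryos or cultures, and the p-values below measure only the spread between such arrays.

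VHL and FIH restrain the hypoxia-inducible factor HIF at separate steps. In oxygenated cells the prolyl hydroxylases Egln1, Egln2 and Egln3 mark the HIF alpha subunits, VHL binds the marked subunit as the recognition part of a ubiquitin ligase, and the subunit is degraded. FIH, the product of Hif1an, hydroxylates an asparagine in the C-terminal activation domain of HIF and so keeps the coactivators Ep300 and Crebbp away from it. HIF is known for raising glycolysis, glucose uptake, red cell production and vessel growth in low oxygen.

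The arrays gave MAS5 signals, linear intensities in arbitrary units, for 45037 probe sets beside 64 controls. Probe sets entered the test when 2 or more of the 8 arrays exceeded 291.1, the median signal of the series, called the cutoff below. Each of 11564 tested genes was read by its brightest tested probe set. Differences are of group means of log2(signal + 16), so a value of 1 is close to a 2-fold difference, and the value after each ± sign is the SE from one limma fit of all 4 groups, 2 arrays in each. Adjusted p-values are from that fit with Benjamini-Hochberg adjustment over 24523 probe sets and a threshold of 0.05. Where both arrays of one group lay under 291.1, the fold is given as at least the bright group's mean over that cutoff. The spiked hybridization controls were 0.52 higher on the log2 scale in double null than in wild-type cells, and scaling each array to them, called control scaling below, moves the median of all genes from -0.05 to -0.57. With control scaling lower genes therefore outnumber higher ones in most gene lists, and those counts are given beside the list. The 18S ribosomal RNA control probe set read 679 and 760 in wild-type and 1402 and 1454 in double null cells, while the 3′ to 5′ signal ratio of Actb, a sign of RNA integrity, ran from 1.18 to 1.29 over all arrays. Of 13 fibroblast markers on the array 10 were above the cutoff in wild-type and 8 in double null cells, and Fap and Lum were under it on all 4 arrays.

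The 2 deleted genes were both lower in double null cells. Signals of Vhl were 3269 and 3319.6 in wild-type and 1061 and 897 in double null cells, a difference of -1.74 ± 0.112, adjusted p = 1.38e-06. Hif1an, which encodes FIH, gave 2722 and 3013 in wild-type and 1404 and 1169 in double null cells, a difference of -1.15 ± 0.119, adjusted p = 4.35e-05. Neither pair of groups overlapped, yet both genes kept signals well above the cutoff. Vhl, at 708 and 755 in VHL null cells, was 0.41 higher in double null than in VHL null cells (adjusted p = 0.0188). Hif1an was -0.66 against VHL null cells (adjusted p = 0.00215) and -0.40 against FIH null cells (adjusted p = 0.0228). In VHL null cells, whose FIH gene was left intact, Hif1an was itself -0.49 from wild type (adjusted p = 0.00886). Where the probes lie relative to the deleted parts is not given in the sources used here, so these signals check the labels only in direction.

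Of the 11564 tested genes, 4515 passed the threshold, 39.0%, with 1936 higher (16.7%) and 2579 lower (22.3%) in double null cells. At least a 2-fold difference was reached by 793 of them (6.86% of all tested), 418 higher (3.61%) and 375 lower (3.24%). The shares of 16.7% higher and 22.3% lower are the background for every list count against wild type below. All 4515 had arrays that did not overlap between the groups, against 70.1% of all tested genes. Absence of overlap, where given below for called genes, thus adds nothing to their calls. The higher genes were 42.88% of those called; they were 55.99% after centring each array on its median, 53.8% after centring each chromosome and 5.567% with control scaling. The sign of a small difference thus depends on the scaling. The plot of level against difference has several HIF target genes near its upper edge and several Hox genes near its lower one.

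**Figure D1:**
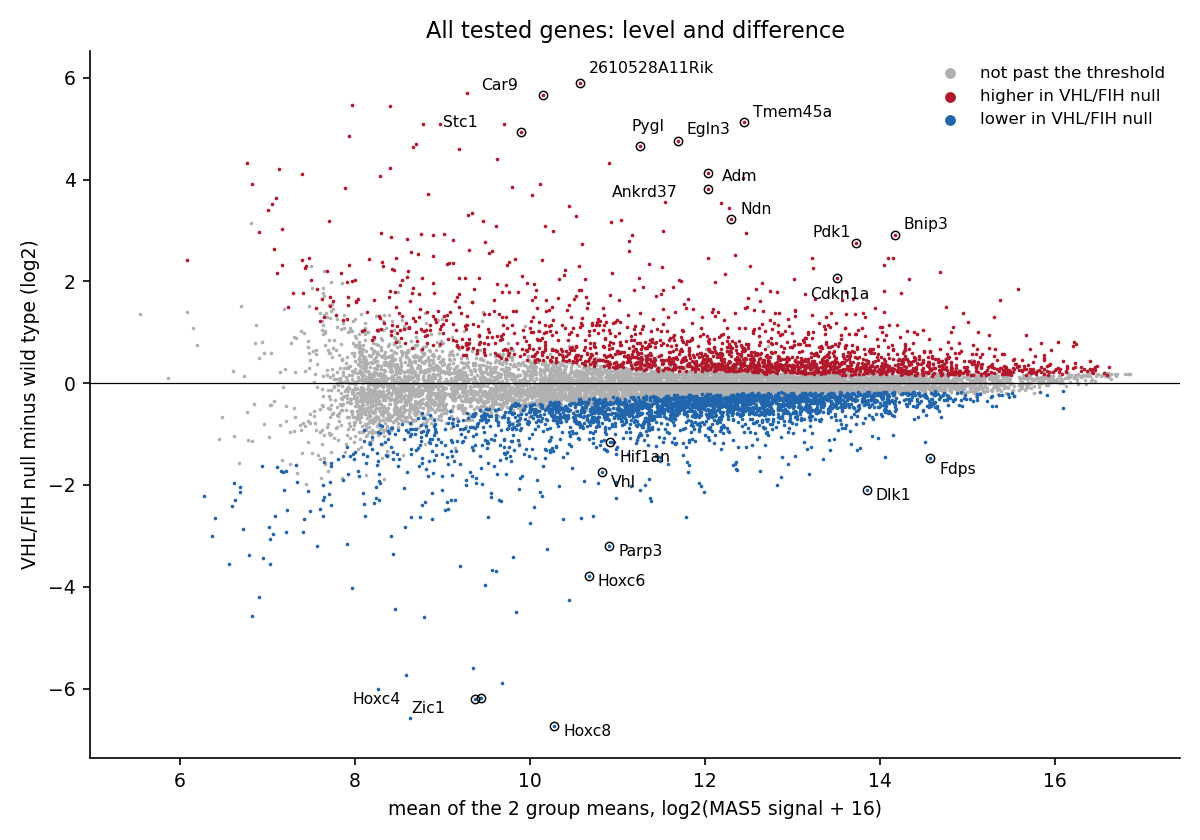
Each point is 1 of the 11564 tested genes, with the mean of the wild-type and double null group means of log2(MAS5 signal + 16) on the x axis and the double null minus wild-type difference (log2) on the y axis; red and blue points passed the threshold, grey did not. Circled genes are named in the text: Tmem45a stands at 5.13, Egln3 at 4.76 and Hoxc6 at -3.78. Differences of genes under the cutoff in one group, such as Car9 and Hoxc8, are fitted values.

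The largest rises among genes with all 4 arrays above the cutoff were those of Tmem45a, Egln3, Pygl, Gng11, Adm, Ifi202b, Ankrd37 and Shox2. Tmem45a, a transmembrane protein gene of the hypoxia list, went from 1050.0 and 817 in wild-type to 37046 and 29329 in double null cells, a difference of 5.13 ± 0.129, adjusted p = 3.61e-09. Egln3, a HIF prolyl hydroxylase that is itself induced by HIF, went from 633 and 603 to 17534 and 16702, a difference of 4.76 ± 0.0844, adjusted p = 6.64e-10. For both genes the double null arrays lay far above the wild-type arrays, and the arrays of a group were close together. Pygl, liver glycogen phosphorylase, was 428 and 519 in wild-type and 13296 and 11289 in double null cells (4.65 ± 0.121). Adm, the vasodilator peptide adrenomedullin, was 933 and 1048 in wild-type and 18836 and 16327 in double null cells (4.13 ± 0.109). Ankrd37, a small ankyrin repeat protein, was 974 and 1249.7 in wild-type and 16062 and 15321 in double null cells (3.81 ± 0.13). No array of either group overlapped the other in these genes, which was a condition of their choice. Gng11, a G protein gamma subunit, was 451 and 379 in wild-type and 8675 and 8436 in double null cells (4.32 ± 0.15). Ifi202b, an interferon-inducible DNA-binding protein, was 1287 and 1413 in wild-type and 22408 and 22516 in double null cells (4.04 ± 0.279). Shox2, a homeobox factor of the proximal limb, was 819 and 898 in wild-type and 10209 and 10249 in double null cells (3.55 ± 0.194).

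Other genes were under the cutoff in wild-type cells and above it in double null cells. Of the 11564 tested genes, 202 were so on both arrays of each group, and 218 had the reverse pattern. Those counts require neither a call nor a bright signal, and the 4 genes below are the brightest called ones, not typical ones. The gene 2610528A11Rik gave 183 and 179 in wild-type and 11933 and 11537 in double null cells, at least 40.3-fold higher (adjusted p = 1.64e-09). Car9, the membrane carbonic anhydrase that acidifies the outside of hypoxic cells, gave 130.3 and 158 in wild-type and 8284 and 7768 in double null cells, at least 27.6-fold higher (adjusted p = 1.15e-07). Stc1, the secreted hormone stanniocalcin, gave 185 and 132 in wild-type and 5502 and 5034 in double null cells, at least 18.1-fold higher. Ndufa4l2, a mitochondrial protein related to a respiratory chain subunit, gave 89.6 and 177 in wild-type and 4991 and 4713 in double null cells, at least 16.7-fold higher. These are the 4 genes of this kind with the largest bounds, and none reached the cutoff on a wild-type array.

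Because HIF binds the letters ACGTG or GCGTG, the bases before the start site are shown for a set of genes with large rises, with such letters in capitals on either strand (CACGT and CACGC are the reverse strand). The word CACGTG holds ACGTG on both strands. The shares and gene counts below rest only on whether a word is present, not on how often. The sequences come from RefSeq promoter windows of GRCm38.p6, read 5′ to 3′ on the gene's strand and ending at the base before the annotated start, and 16 of 19 genes looked up were found there. Car9 lies at chr4:43506926-43507025 (plus strand), Ankrd37 at chr8:45999851-45999950 (minus), Slc2a1 at chr4:119108645-119108744 (plus), Hk2 at chr6:82774455-82774554 (minus), Adm at chr7:110627557-110627656 (plus), Tmem45a at chr16:56886164-56886263 (minus) and Egln3 at chr12:54203875-54203974 (minus).
Car9: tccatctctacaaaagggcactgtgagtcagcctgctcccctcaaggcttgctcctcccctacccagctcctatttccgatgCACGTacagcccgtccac
Ankrd37: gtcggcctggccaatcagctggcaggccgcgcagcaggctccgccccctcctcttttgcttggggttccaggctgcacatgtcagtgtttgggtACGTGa
Slc2a1: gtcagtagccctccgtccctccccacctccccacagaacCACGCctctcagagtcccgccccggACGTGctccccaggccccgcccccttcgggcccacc
Hk2: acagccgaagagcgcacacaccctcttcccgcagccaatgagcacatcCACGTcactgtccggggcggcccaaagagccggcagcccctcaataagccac
Adm: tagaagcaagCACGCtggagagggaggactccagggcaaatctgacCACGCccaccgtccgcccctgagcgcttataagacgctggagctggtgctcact
Tmem45a: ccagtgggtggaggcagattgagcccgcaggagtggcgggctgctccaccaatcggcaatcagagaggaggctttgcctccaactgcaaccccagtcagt
Egln3: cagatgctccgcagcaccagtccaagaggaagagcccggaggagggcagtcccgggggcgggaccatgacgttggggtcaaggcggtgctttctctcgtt
Of the 16 genes found, only the first 4 shown hold ACGTG on either strand in the 100 bases before an annotated start. Another 7, Adm among them, hold GCGTG alone, and 5 hold neither word in these 100 bases, Tmem45a and Egln3 among them. In windows of 300 bases all of these 5 but Ifi202b hold a match to either word, with 1 each in Tmem45a and Egln3. Over the full windows of 300 bases, 250 before and 50 after the start, ACGTG on either strand occurred in 52.1% of 48 promoters of the hypoxia list and 51.7% of 29 promoters of the glycolysis list, against 25.6% of the 11999 promoters of tested genes and 19.6% of all 32851 in the table. The share was 30.2% for genes at least 2-fold higher and 18.6% for genes at least 2-fold lower. GCGTG occurred in 64.6% of the promoters of the hypoxia list and 48.3% of those of the glycolysis list, against 50.8% for all tested genes, and in 45.1% and 40.1% for the genes at least 2-fold higher and lower. Either word occurred in 58.5% of the promoters of the 2-fold higher genes, under the 62.1% of all tested genes. A match describes these letters and is no evidence of binding. Windows were found for 34 of the 45 tested genes of the hypoxia list and 18 of 19 of the glycolysis list. The shares count windows, so a gene with several annotated starts entered with each of its windows, some of which overlap.

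Among 18 tested genes of the HIF pathway itself, 7 were higher and 3 lower in double null cells (background 16.7% and 22.3%). The lower ones were Vhl, Hif1an and Arnt2, and the median difference of the 18 was 0.12 against -0.05 for all genes. With control scaling 4 were higher and 11 lower. The oxygen sensors differed from one another. Egln1 gave 6725 and 6705 in wild-type and 24506 and 22173 in double null cells (1.79 ± 0.0677) and rose, as did Egln3, without overlap of the groups. Egln2 gave 4783 and 4795 in wild-type and 4452 and 4044 in double null cells (-0.17, adjusted p = 0.0957) and did not pass. The message of the alpha subunit Hif1a was 30620.4 and 30233 in wild-type and 25481 and 28347 in double null cells, a difference of -0.18 ± 0.0634, adjusted p = 0.0508. That of its partner Arnt differed by -0.22 (adjusted p = 0.0762). Neither passed. Without double null array 1 the differences of Egln2 and Arnt passed, at -0.24 (adjusted p = 0.0482) and -0.32 (adjusted p = 0.0239), and without double null array 2 that of Hif1a did, at -0.26 (adjusted p = 0.0123). The Hif1a difference was negative and passed under 8 alternatives in all, among them quantile normalization (-0.24, adjusted p = 0.00927) and averaging all tested probe sets of a gene (-0.29, adjusted p = 0.00656). Epas1, the second alpha subunit, gave 213 and 222 in wild-type and 661 and 494 in double null cells, at least 1.98-fold higher (adjusted p = 0.0136); without wild-type array 1 or double null array 1 it did not pass (adjusted p = 0.0617 and 0.103). Arnt2, a relative of Arnt, gave 1383 and 1259.6 in wild-type and 507 and 589.9 in double null cells and fell (-1.25 ± 0.164). The coactivator gene Ep300 differed by 0.10 (adjusted p = 0.402), by -0.42 with control scaling (adjusted p = 0.00165) and by 0.24 after each chromosome was centred (adjusted p = 0.0497). Cited2, which competes with HIF for the coactivators, rose from 33301 and 33789 to 50568 and 46164 (0.53 ± 0.0627; 0.00 with control scaling). Its relative Cited1 gave 29.9 and 16.9 in wild-type and 443 and 489 in double null cells, at least 1.6-fold higher.

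The hypoxia-inducible genes were the list with the highest median. Of 45 tested genes 39 were higher and 2 lower (background 16.7% and 22.3%), 32 of them at least 2-fold higher, with a median difference of 1.53. With control scaling 33 were higher and 5 lower. Bnip3, a mitophagy receptor, gave 6697 and 6752 in wild-type and 54259 and 46921 in double null cells (2.90 ± 0.0707). Ak4, a mitochondrial adenylate kinase, gave 1359 and 1332 in wild-type and 16615 and 15028 in double null cells (3.54 ± 0.0814). Both rose without any overlap. Vldlr, a lipoprotein receptor, gave 1442 and 1539.8 in wild-type and 16868 and 15874 in double null cells (3.44 ± 0.105). Vegfa, the main growth factor of blood vessels, was 3526 and 3242 in wild-type and 10414 and 8742 in double null cells, a smaller difference of 1.49 ± 0.109. In all 4 genes both double null arrays lay above both wild-type arrays by far more than the arrays of a group differed. The 2 lower members were Cp, the ferroxidase ceruloplasmin, and Pdgfb, a platelet-derived growth factor chain. Cp gave 1163 and 1177 in wild-type and 212 and 227 in double null cells, at least 4.02-fold lower. Pdgfb gave 823 and 647 in wild-type and 355 and 221 in double null cells (-1.33 ± 0.258). Both pairs of groups were apart, and Cp was also under the cutoff in FIH null cells, at 76.3 and 23.2, but not in VHL null cells, at 1406 and 1555.

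The double null cells were also set against VHL null cells, a comparison that shares the double null arrays with the one above and in which 35.0% of all tested genes passed, 20.7% higher and 14.3% lower in double null cells. Of the 45 hypoxia-inducible genes 25 were higher and 5 lower in double null than in VHL null cells. Car9 stood farthest apart: it gave 243 and 436 in VHL null and 251 and 240.0 in FIH null cells, 4.56 ± 0.255 below the double null level on the log2 scale in VHL null cells (adjusted p = 7.88e-07). Egln3 gave 4188 and 4412 in VHL null cells, so that double null cells were 1.99 ± 0.0844 higher. Adm, in VHL null cells at 4348 and 4810.1, differed by 1.94 ± 0.109. All these single null arrays lay below the double null arrays. Ankrd37 was 3207 and 3112 in FIH null and 3895 and 3082 in VHL null cells, 2.31 and 2.17 under the double null level. Ndufa4l2 was 2.08 ± 0.271 and Tmem45a 1.26 ± 0.129 higher than in VHL null cells. Against FIH null cells, where 43.5% of all tested genes passed, 19.7% higher and 23.9% lower, 40 of the 45 were higher in double null cells and 1 was lower. Egln3 was 3.95 ± 0.0844 above the FIH null level, while Car9 was under the cutoff on both FIH null arrays, as given above. The 6 genes named here had their highest signals on the 2 double null arrays, with no overlap with any other group.

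For other members the difference between double null and VHL null cells did not pass the threshold. Egln1 differed by 0.04 ± 0.0677 (adjusted p = 0.699) between them, Stc1 by 0.06 ± 0.184 (adjusted p = 0.851) and Jmjd6 by 0.01 ± 0.0647 (adjusted p = 0.917). Vldlr was lower in double null than in VHL null cells, with a difference of -0.35 ± 0.105 (adjusted p = 0.0279). The plot of signals by array shows both patterns, with Car9, Egln3 and Adm highest in double null cells and Egln1, Pdk1 and Stc1 close to their VHL null signals.

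**Figure D2:**
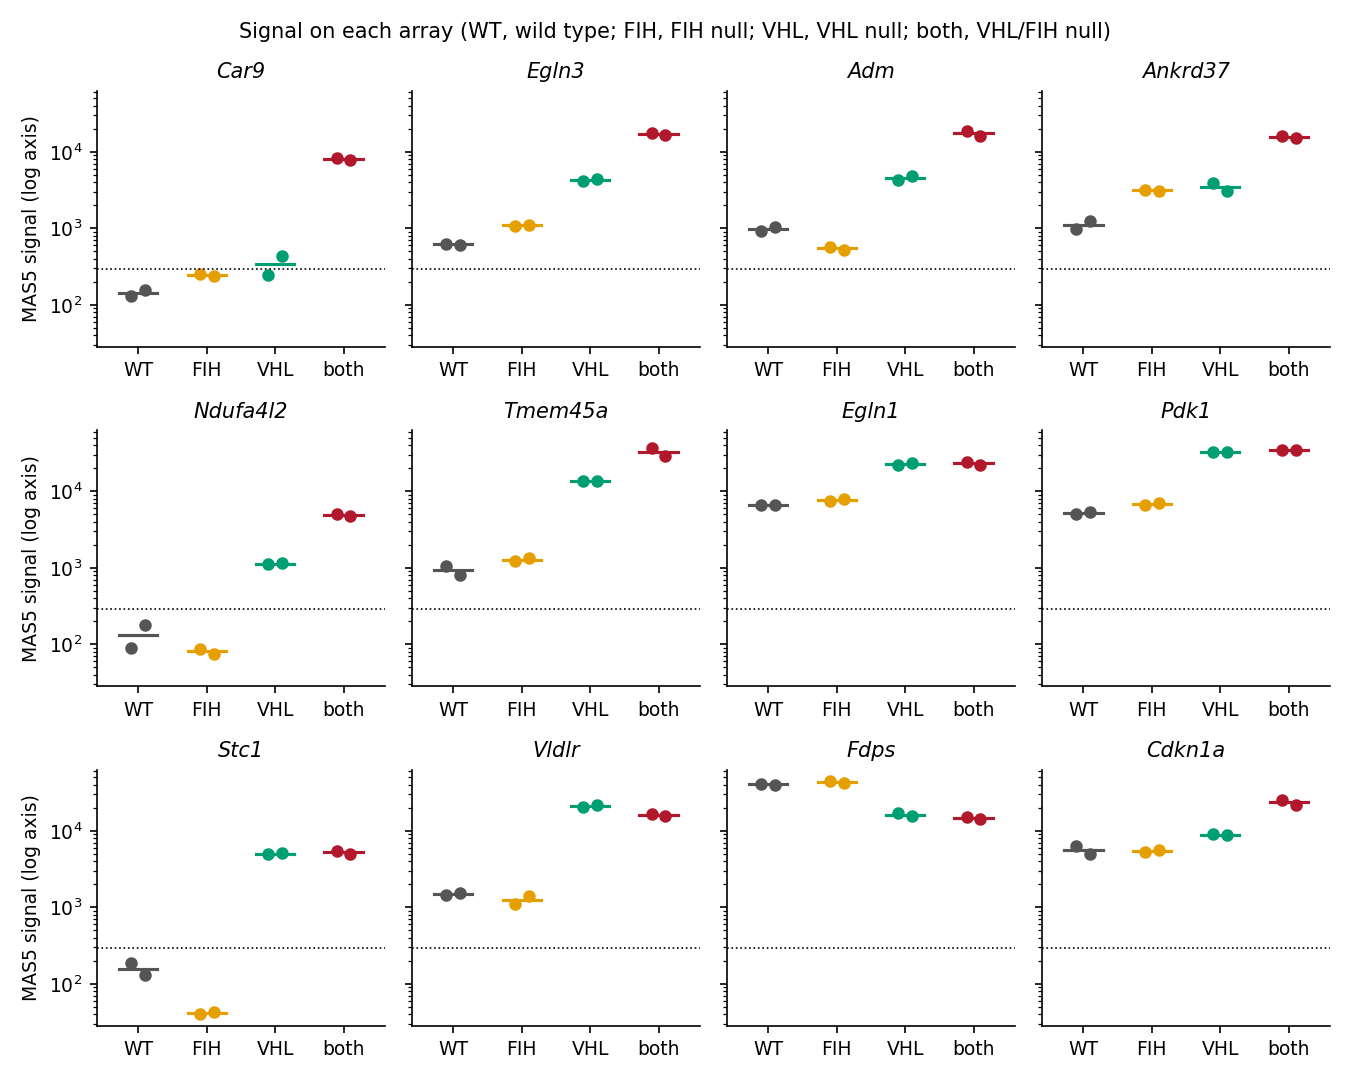
MAS5 signals (log axis, arbitrary units) of 12 genes on each of the 8 arrays; points are arrays, short lines the mean of the 2 arrays of a group, the dotted line the cutoff of 291.1. Car9 is bright on the 2 double null arrays only, while Pdk1 and Stc1 have close signals in VHL null and double null cells and Fdps is lower in both than in wild-type cells.

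**Figure D3:**
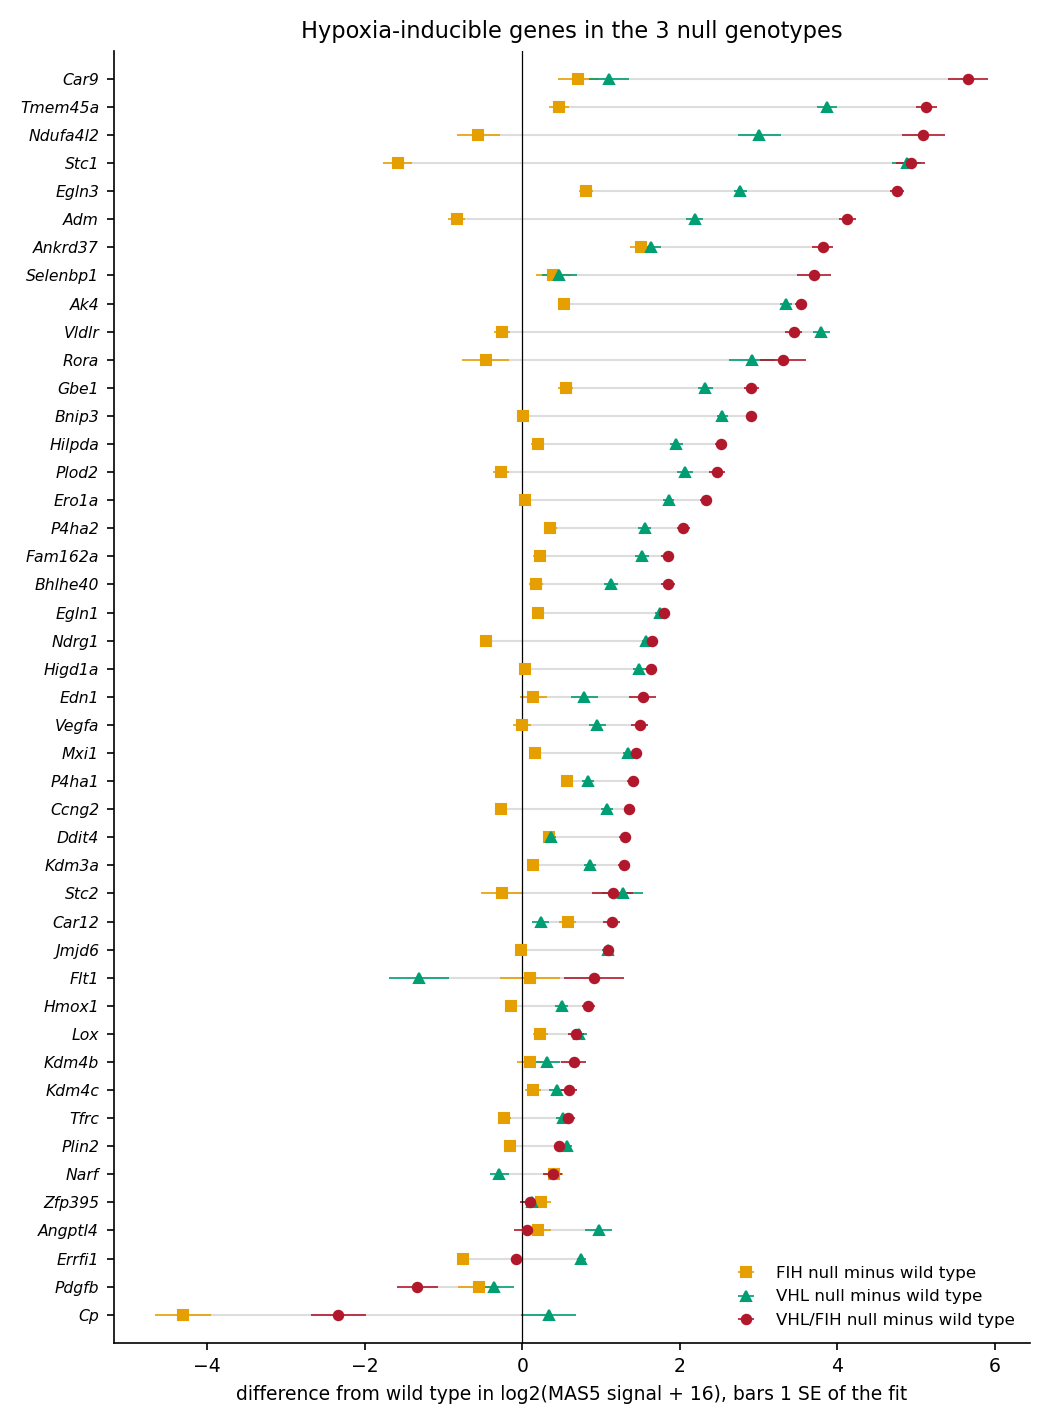
Differences from wild type in log2(MAS5 signal + 16) for the 45 tested hypoxia-inducible genes in FIH null, VHL null and double null cells, sorted by the double null difference, with bars of 1 SE of the fit; all 3 differences share the 2 wild-type arrays. Cp is lowest and Car9 highest in double null cells, both with one group under the cutoff, so that these points are fitted values; Tmem45a stands at 5.13.

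Glucose uptake and glycolysis rose as a group. Of 19 tested genes 16 were higher and 2 lower, 10 at least 2-fold higher, with a median of 1.22; with control scaling 14 were higher and 3 lower. Slc2a1, the main glucose transporter of fibroblasts, gave 12764 and 11858 in wild-type and 60111 and 52788 in double null cells (2.19 ± 0.0704). Hk2, a hexokinase that traps glucose in the cell, gave 4033 and 4096 in wild-type and 17812 and 16036 in double null cells (2.05 ± 0.0716). Pdk1, the kinase that shuts the pyruvate dehydrogenase gate, gave 4991 and 5378 in wild-type and 35249 and 34899.8 in double null cells (2.76 ± 0.0624, adjusted p = 2.47e-09). Each rose on both arrays without overlap. The aldolase isoform Aldoc gave 1010.1 and 1036 in wild-type and 8579 and 7844 in double null cells (2.98 ± 0.0885). The phosphofructokinase Pfkp gave 4238 and 3904 in wild-type and 24315 and 20635 in double null cells (2.46 ± 0.0814). Eno2, the neuronal enolase isoform, went the other way with 1103 and 1028 in wild-type and 605 and 371 in double null cells (-1.14 ± 0.216). Against VHL null cells 7 of the 19 genes were higher and 1 lower (background 20.7% and 14.3%). Slc2a1 was 0.32 (adjusted p = 0.00649) and Aldoc 0.74 (adjusted p = 0.000165) above the VHL null level, while Pdk1 differed by 0.11 (adjusted p = 0.221).

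Of 13 tested genes of glycogen metabolism 7 were higher, all at least 2-fold, and none lower (background 16.7% and 22.3%). The median was 1.08, the other 6 did not pass, and with control scaling 7 were higher and 4 lower. Gbe1, the branching enzyme, gave 776 and 864 in wild-type and 6199.9 and 6289 in double null cells (2.91 ± 0.0951). Gys1, the muscle glycogen synthase, gave 1481 and 1611 in wild-type and 5923 and 5181 in double null cells (1.83 ± 0.124). Pgm1, which interconverts glucose phosphates, rose by 1.76 ± 0.093. Ppp1r3b, a subunit that brings protein phosphatase to glycogen, went from 23.8 and 19.4 to 1782 and 1516, at least 5.67-fold higher. Genes of both synthesis and breakdown were thus among the higher ones, since Pygl, named above, splits glycogen.

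Of 21 tested genes of cholesterol synthesis 19 were lower and none higher (background 22.3% and 16.7%), 15 at least 2-fold, with a median of -1.16; with control scaling 21 were lower. Fdps, which makes farnesyl diphosphate, gave 41429 and 39931 in wild-type and 14999 and 14241 in double null cells (-1.48 ± 0.0661, adjusted p = 1.11e-07). Srebf2, the transcription factor that drives the pathway, gave 9111 and 8888 in wild-type and 3183 and 2806 in double null cells (-1.58 ± 0.077). Both fell without overlap. Cyp51, the lanosterol demethylase, gave 13311 and 14071 in wild-type and 4965 and 5165 in double null cells (-1.43 ± 0.0683). Msmo1, a sterol oxidase that uses oxygen, gave 21345 and 21669 in wild-type and 8267 and 9056 in double null cells (-1.31 ± 0.0641). In all 4 genes both double null arrays lay under both wild-type arrays by far more than the arrays of a group differed. Against VHL null cells 9 of the 21 were lower (background 14.3%). Cyp51 differed by -0.71 (adjusted p = 3.92e-05) and Srebf2 by -0.56 (adjusted p = 0.000393), while Fdps differed by -0.15 (adjusted p = 0.113).

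Fatty acid synthesis was lower as well, with 11 of 14 tested genes lower, 1 higher and a median of -0.65, and 13 lower with control scaling. Fads2, a desaturase of polyunsaturated fatty acids, gave 9629 and 9421 in wild-type and 2865 and 2956 in double null cells (-1.71 ± 0.0689). Its relative Fads1 gave 17284 and 17614 in wild-type and 6183 and 6203 in double null cells (-1.49 ± 0.0626). Scd1, the stearoyl desaturase, gave 22315 and 21026 in wild-type and 8616 and 9288 in double null cells (-1.27 ± 0.0628). The higher gene was Me1, the cytosolic malic enzyme, with 0.48 ± 0.0557, which turned to -0.05 with control scaling. Of 24 tested genes of fatty acid oxidation 10 were lower and 3 higher, with a median of -0.17 and none past 2-fold, and 21 and 0 with control scaling; without wild-type array 1 only 6 were lower. Cpt1a, which brings fatty acids into mitochondria, gave 5977 and 5788 in wild-type and 3807 and 3442 in double null cells (-0.70 ± 0.0733). Eci1, an isomerase of the pathway, fell by a like amount (-0.74 ± 0.0832), and the carnitine carrier Slc25a20 rose (0.69 ± 0.0761; 0.17 with control scaling, adjusted p = 0.0816).

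Genes of the mitochondrial energy pathways had medians near that of all genes. Of 59 tested genes of the respiratory chain and ATP synthase 14 were higher and 9 lower, 23.7% and 15.3%, with a median of 0.06, and 1 and 55 with control scaling. Without wild-type array 1 the higher genes were 7 and without wild-type array 2 they were 9. The largest changes that passed were those of Ndufv3, a complex I subunit, with 15718 and 16242 in wild-type and 35312 and 30937 in double null cells (1.05 ± 0.0674), and of Ndufs5, another, with 16013 and 16894 in wild-type and 8998 and 8898 in double null cells (-0.88 ± 0.0638). Parts of 1 complex thus changed in opposite directions. In the tricarboxylic acid cycle and glutamine list 8 of 28 tested genes were lower and 1 higher, with a median of -0.09; the counts were 27 and 0 with control scaling and 15 and 1 with quantile normalization. Idh1, the cytosolic isocitrate dehydrogenase, gave 15054 and 14139 in wild-type and 5407 and 6961 in double null cells (-1.25 ± 0.101). Its mitochondrial relative Idh2 fell by less (-0.75 ± 0.065), as did the succinate ligase subunit Suclg2 (-0.64 ± 0.0599). The Idh1 difference between double null and VHL null cells was 0.03 (adjusted p = 0.844). Of 12 tested iron genes 2 were higher, the transferrin receptor Tfrc (0.58 ± 0.0843; 0.06 with control scaling, adjusted p = 0.482) and the heme oxygenase Hmox1 (0.84 ± 0.0801), and 4 were lower; with control scaling 1 was higher and 8 lower. Among the lower ones was the iron exporter Slc40a1, at least 1.77-fold lower.

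The collagen prolyl and lysyl hydroxylases and the JmjC demethylases use oxygen and 2-oxoglutarate, as FIH and the Egln proteins do. Of 17 tested collagen hydroxylases and crosslinking enzymes 9 were higher and 4 lower, with a median of 0.36, and 6 and 8 with control scaling; the lower genes were 0 without wild-type array 1 and 2 without double null array 2. P4ha2, a catalytic subunit of collagen prolyl hydroxylase, gave 10449 and 9842 in wild-type and 46202 and 38049 in double null cells (2.05 ± 0.0841). P4ha1, the other common one, gave 10589.7 and 10179 in wild-type and 30222 and 25182 in double null cells (1.41 ± 0.0797). Plod2, a collagen lysyl hydroxylase, gave 7029 and 7736 in wild-type and 44523 and 37544 in double null cells (2.47 ± 0.103). All 3 rose without overlap, and P3h3, a prolyl 3-hydroxylase family member, rose by 1.35 ± 0.127. Loxl3, a copper enzyme that crosslinks collagen, gave 3424 and 3038 in wild-type and 13035 and 12263 in double null cells (1.97 ± 0.0809) against 2262 and 2256 in VHL null cells, 2.48 ± 0.0809 higher. The 22 tested JmjC demethylases and relatives had a median of 0.19. Of these 9 were higher and 5 lower (background 16.7% and 22.3%), and 3 and 12 with control scaling. Only 3 were lower without wild-type array 2 or either double null array. Kdm3a, which demethylates lysine 9 of histone H3, gave 6949 and 6663 in wild-type and 17777 and 15717 in double null cells (1.29 ± 0.0745). Jmjd6, a relative that acts on lysines of other proteins, rose (1.09 ± 0.0647), and Kdm8 fell (-0.77 ± 0.139).

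Structural matrix genes moved in both directions, 13 of 40 tested genes higher and 15 lower, with a median of 0.01, and 8 and 26 with control scaling. Col6a3, a chain of collagen VI, gave 389.6 and 412 in wild-type and 4729 and 4558 in double null cells (3.48 ± 0.143, adjusted p = 6.05e-08). Col11a1, a fibril-forming chain, gave 582 and 653 in wild-type and 2502 and 2696 in double null cells (2.05 ± 0.142). The single null cells stayed far below these levels, with Col6a3 at 524 and 470.3 in VHL null and 587 and 544 in FIH null cells. Col3a1 (1.15 ± 0.0563), the thrombospondin Thbs1 (1.10 ± 0.0686) and tenascin C, Tnc (1.10 ± 0.0694), were higher too. On the lower side stood Mfap2, a microfibril glycoprotein, with 2361 and 2431 in wild-type and 598 and 426 in double null cells (-2.21 ± 0.16), Col18a1 (-1.75 ± 0.107), the adhesion protein Tgfbi (-1.62 ± 0.0884), the basement membrane chain Col4a1 (-1.29 ± 0.0741) and periostin, Postn (-1.20 ± 0.0998). Postn was 814 and 776 in VHL null and 12684 and 12295 in FIH null cells, so the double null level lay between them. Among 18 tested proteases and inhibitors 8 were higher and 3 lower, with a median of 0.40, and 6 and 9 with control scaling. Without control scaling 5 were at least 2-fold higher, and the highest difference was 1.71. Serpinf1 (1.46 ± 0.101), Adam19 (1.16 ± 0.14) and the aggrecanase Adamts5 (0.76 ± 0.0816) were among the higher ones. Of 17 tested contractile genes 8 were higher and 3 lower, with a median of 0.26, and 3 and 11 with control scaling. Cnn1, smooth muscle calponin, gave 3544 and 3737 in wild-type and 10874 and 9027 in double null cells (1.44 ± 0.0999). Ccn2, connective tissue growth factor, gave 24002 and 27258 in wild-type and 66579.6 and 60423 in double null cells (1.31 ± 0.0739). Actg2, smooth muscle gamma actin, went against these with 1966 and 1855 in wild-type and 464 and 419 in double null cells (-2.07 ± 0.2).

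Targets of p53 were higher in double null cells, 15 of 24 tested genes against 2 lower (background 16.7% and 22.3%). Their median was 0.63, and with control scaling 8 were higher and 8 lower. Cdkn1a, the p21 inhibitor of cyclin-dependent kinases, gave 6391 and 5027 in wild-type and 25422 and 22083 in double null cells (2.06 ± 0.108, adjusted p = 3.06e-07). Trp53inp1, a stress protein, gave 3118 and 3315 in wild-type and 10701 and 9861 in double null cells (1.67 ± 0.0881). Both rose without overlap. Ccng1, cyclin G1, gave 24652 and 25532 in wild-type and 51614 and 49701 in double null cells (1.01 ± 0.0538). Mdm2, the ligase that degrades p53, gave 7417 and 7143 in wild-type and 16540.1 and 14003 in double null cells (1.06 ± 0.0851), and Polk, a DNA polymerase, rose by 0.94 ± 0.0739. The arrays of these 5 genes did not overlap. Perp, a membrane protein of cell junctions, went the other way with 9158 and 9646 in wild-type and 3191 and 2635 in double null cells (-1.69 ± 0.0958). Against VHL null cells 16 of the 24 were higher and 2 lower (background 20.7% and 14.3%). Trp53inp1 was 1.63 ± 0.0881 and Ccng1 0.95 ± 0.0538 above the VHL null level, and in VHL null cells these 2 genes were 0.04 and 0.06 from wild type. The large T antigen that all these lines carry is known to bind p53, and its part here was not tested.

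Cell cycle and DNA replication genes differed less, with a median of 0.08. Of 48 tested 11 were higher and 8 lower (background 16.7% and 22.3%), and 1 and 42 with control scaling. The higher genes were 6 without wild-type array 1 and 7 without wild-type array 2, and the lower genes 4 without wild-type array 2. The largest changes were those of Ccne2, cyclin E2, with 7708 and 9377 in wild-type and 16874 and 19423 in double null cells (1.09 ± 0.0985), and Cdkn1c, the imprinted p57 inhibitor, with 8592 and 8913 in wild-type and 1608 and 1223 in double null cells (-2.63 ± 0.114, adjusted p = 8.84e-08). Cdkn1c thus fell while the related inhibitor Cdkn1a rose.

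FIH also hydroxylates ankyrin repeat proteins, Notch receptors among them. Of 13 tested substrates 4 were higher and 7 lower, with a median of -0.21, and 0 and 12 with control scaling. Without any one of the 4 arrays only 1 or 2 were higher. Asb4, an ankyrin repeat protein of a ubiquitin ligase, gave 2796 and 3007 in wild-type and 293 and 224 in double null cells (-3.42 ± 0.208, adjusted p = 8.88e-07), against 164 and 238 in FIH null and 1579 and 1807 in VHL null cells. The double null and FIH null arrays were thus near or under the cutoff and below both other groups. Of 21 tested Notch pathway genes 7 were higher and 2 lower (background 16.7% and 22.3%), with a median of 0.17. The counts were 3 and 10 with control scaling, and without wild-type array 1 the higher ones were 4. Hey2, a target gene of Notch that encodes a repressor, gave 108 and 88 in wild-type and 729.7 and 1005 in double null cells, at least 2.98-fold higher. Its relative Hey1 gave 189.6 and 212 in wild-type and 674 and 788 in double null cells, at least 2.51-fold higher. The ligand gene Jag1 differed by 1.16 by its brightest probe set and -1.24 by its other one, so its direction is not settled. The receptor gene Notch1 gave 2631 and 2388 in wild-type and 1697 and 1528 in double null cells and fell (-0.63 ± 0.135). Of 16 tested NF-kB targets and inhibitors 4 were higher and 6 lower, with a median of -0.14, and 0 and 13 with control scaling; the higher genes were 1 or 2 without any one array and the lower ones 3 without wild-type array 1. Bcl3, a nuclear partner of NF-kB, gave 1012 and 997 in wild-type and 327 and 320.1 in double null cells (-1.59 ± 0.157), and the subunit Relb fell too (-1.12 ± 0.138).

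Chemokines and cytokines were split, 10 of 31 tested genes higher and 9 lower, with a median of -0.01, and 7 and 16 with control scaling. Cxcl12, the chemokine that binds Cxcr4, gave 16687 and 16489.5 in wild-type and 7649.9 and 7869.8 in double null cells (-1.09 ± 0.0569). Tgfb3, a transforming growth factor, fell as well (-1.05 ± 0.0832), while Inhba, the activin subunit, rose (0.99 ± 0.0893). Among 32 tested interferon-stimulated genes 8 were higher and 7 lower, with a median of -0.04, and 3 and 16 with control scaling; without wild-type array 2 these were 5 and 4, and without double null array 1 the lower ones were 4. Ly6e gave 27484 and 28897 in wild-type and 10106 and 10475 in double null cells (-1.45 ± 0.0574), and Ifit3 fell too (-1.01 ± 0.149). H2-K1, which presents antigen, gave 9370.2 and 9000.0 in wild-type and 19529.5 and 16444 in double null cells (0.96 ± 0.0817), and the peptide transporter Tap1 rose with it (1.20 ± 0.255). Against VHL null cells 19 of the 32 were higher and 2 lower, where 20.7% of all genes were higher.

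Amino acid deprivation and ER stress genes were 10 higher and 9 lower of 32 tested, with a median of -0.06, and 2 and 26 with control scaling. Only 6 were higher without wild-type array 2. Slc7a5, the leucine transporter, gave 13222 and 13561 in wild-type and 5764 and 6235 in double null cells (-1.16 ± 0.0812). Dnajb9, a chaperone of the ER, gave 4928 and 5134 in wild-type and 9394 and 9341 in double null cells (0.90 ± 0.0681). Of 29 tested NRF2 targets and antioxidant genes 9 were higher and 6 lower, with a median of 0.00, and 2 and 21 with control scaling; the lower ones were 2 without wild-type array 1. Gstt1, a glutathione transferase, rose by 1.14 ± 0.168, and the peroxidase Gpx8 by 0.65 ± 0.0608 (0.13 with control scaling, adjusted p = 0.0733). Nqo1, a quinone reductase, was lower (-0.49 ± 0.0747). Gene groups such as these, with medians near that of all genes, are shown beside the hypoxia and lipid lists in the plot of called genes by list.

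**Figure D4:**
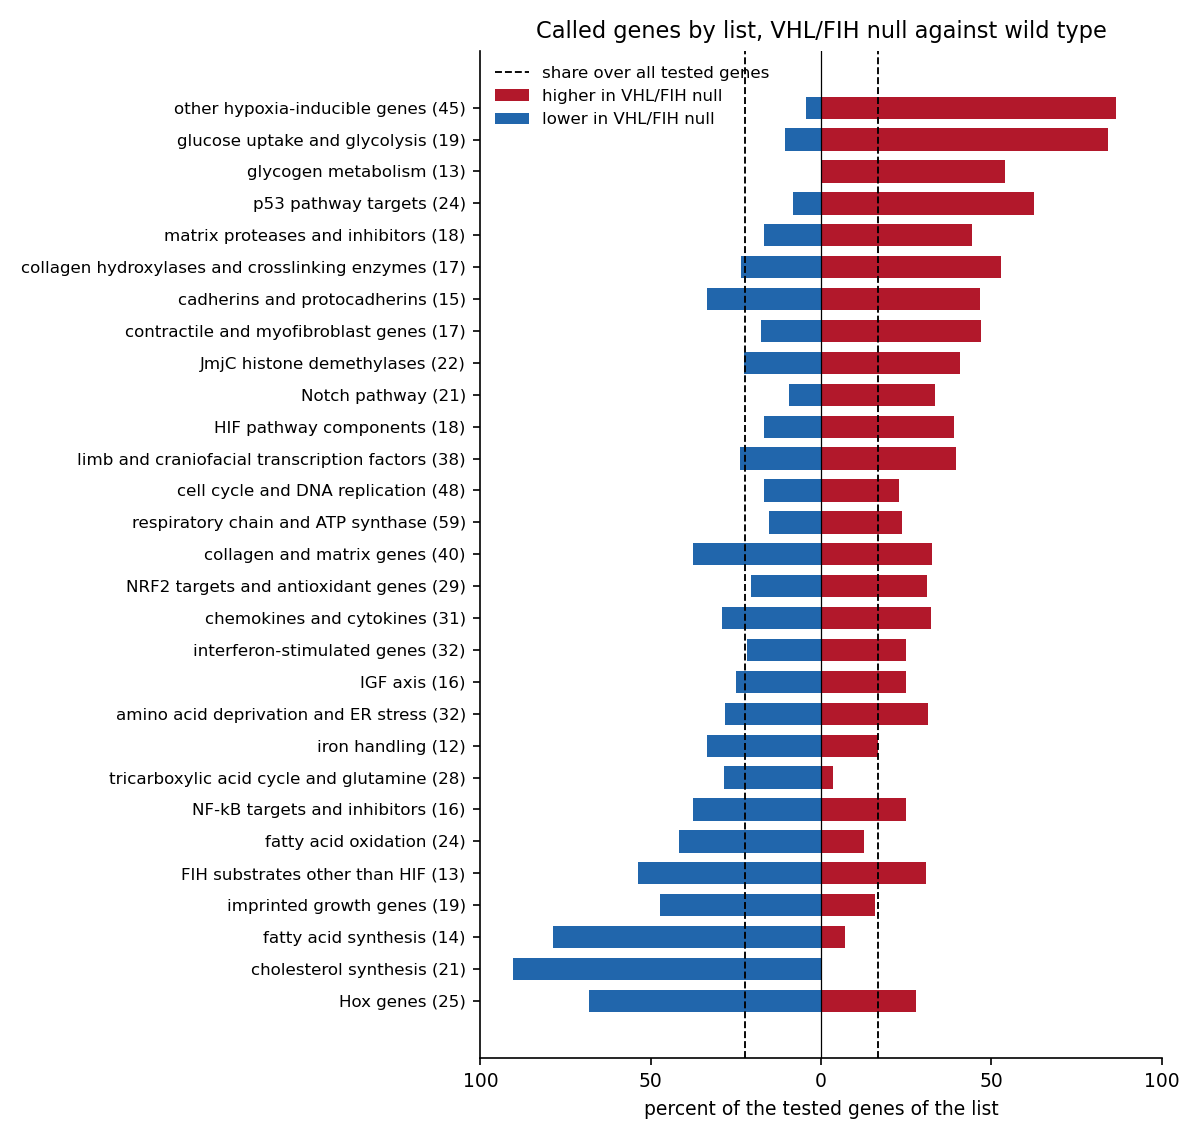
For each of 29 gene lists (number of tested genes in parentheses, sorted by median difference), the percent of tested genes higher (red, to the right) and lower (blue, to the left) in double null than in wild-type cells; dashed lines are the shares over all tested genes, 16.7% higher and 22.3% lower. Hypoxia-inducible, glycolysis and glycogen genes stand at the top and cholesterol synthesis and Hox genes at the bottom.

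Hox genes, the transcription factors that record position along the body and limb axes, had the lowest median of all lists, -2.02, with 17 of 25 tested genes lower and 7 higher; control scaling left these counts as they were. Hoxc8 gave 11556 and 14121 in wild-type and 196 and 52.5 in double null cells, at least 44.1-fold lower (adjusted p = 4.22e-07). Hoxc4 gave 6191 and 5159 in wild-type and 45.3 and 81.1 in double null cells, at least 19.5-fold lower. Hoxc5 gave 4826 and 4232 in wild-type and 146 and 38.7 in double null cells, at least 15.6-fold lower. These genes went from bright signals to signals under the cutoff. Hoxc6 gave 5931 and 6114 in wild-type and 520.2 and 345 in double null cells, a difference of -3.78 ± 0.152, adjusted p = 5.47e-08, and Hoxc9 was at least 6.95-fold lower. The 3 tested probe sets of Hoxc6 were all lower, with differences from -3.88 to -0.44. All 6 tested genes of the HoxC cluster and all 6 of HoxB were lower, among the latter Hoxb6, at least 14.8-fold, and Hoxb2, at least 9.7-fold. In HoxA the 5 tested genes from Hoxa2 to Hoxa7 were lower, and the 3 from Hoxa9 to Hoxa11 were higher. Hoxa5 gave 7562 and 8339 in wild-type and 1873 and 2022 in double null cells (-2.02 ± 0.0737). Hoxa11 gave 1823 and 1688 in wild-type and 5284 and 4398 in double null cells (1.45 ± 0.111), and Hoxa9 rose by 0.90 ± 0.0692. In HoxD 4 of 5 were higher and none lower. Hoxd8 gave 1329.8 and 1272 in wild-type and 5698 and 7146 in double null cells (2.28 ± 0.14), Hoxd9 rose by 2.16 ± 0.152 and Hoxd10 by 1.88 ± 0.165. The FIH null arrays were also low for Hoxc4, at 517 and 242, and for Hoxb6, at 472 and 506. The VHL null arrays were bright for both, at 10159.6 and 10527 for Hoxc4 and 7449.9 and 7676 for Hoxb6. Each null genotype came from a floxed line of its own, so position of origin and genotype cannot be told apart for these genes.

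**Figure D5:**
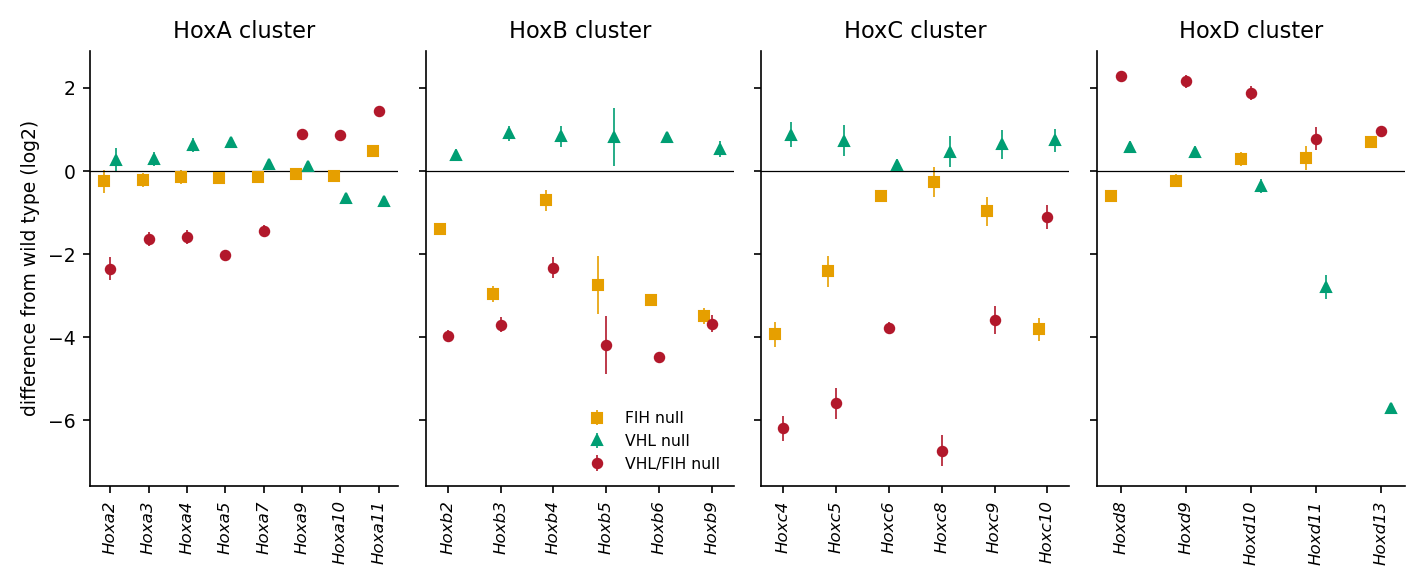
Differences from wild type (log2) of the tested genes of the 4 Hox clusters in FIH null, VHL null and double null cells, in cluster order, with bars of 1 SE of the fit; all 3 genotypes share the wild-type arrays. In double null cells (red circles) every HoxB and HoxC gene lies below 0, HoxA passes from below to above 0 between Hoxa7 and Hoxa9, and the HoxD genes lie above 0.

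Limb and craniofacial transcription factors were 15 higher and 9 lower of 38 tested, with a median of 0.09, and 12 and 21 with control scaling. Tbx4, a factor of the hindlimb, gave 49.7 and 23.9 in wild-type and 2145 and 2268 in double null cells, at least 7.58-fold higher. Lhx2, a factor of limb outgrowth, gave 189.6 and 250.2 in wild-type and 2783 and 4071 in double null cells, at least 11.8-fold higher. Tbx18 (1.39 ± 0.0772) and Lhx9 (1.24 ± 0.0727) were higher along with Shox2. Zic1, a zinc finger factor of the dorsal neural tube and axial mesenchyme, gave 5762 and 6067 in wild-type and 104 and 39.3 in double null cells, at least 20.3-fold lower; FIH null cells were low too, with 189 and 179, and VHL null cells gave 13829 and 14791. Alx1, a factor of the facial mesenchyme, was at least 5.58-fold lower, with VHL null cells at 34.7 and 47.3. Foxd1, a forkhead factor, gave 8204 and 8848 in wild-type and 1749 and 2127 in double null cells (-2.13 ± 0.102).

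Among imprinted genes 9 of 19 tested were lower and 3 higher, with a median of -0.25, and 15 and 3 with control scaling. The maternally expressed RNAs Meg3 and Rian and the paternally expressed Dlk1, neighbours in 1 imprinted domain on chromosome 12, all fell. Dlk1 gave 30302 and 30886 in wild-type and 8009 and 6322 in double null cells (-2.10 ± 0.0927, adjusted p = 1.02e-07). Meg3 gave 11987 and 10977 in wild-type and 4139 and 2906 in double null cells (-1.72 ± 0.129). Rian gave 5312 and 6624 in wild-type and 1374 and 1026 in double null cells (-2.31 ± 0.141). Ndn, necdin, rose from 1629 and 1647 to 13997 and 16877 (3.22 ± 0.115, adjusted p = 2.5e-08) and lay above every array of the other groups. Plagl1, a zinc finger factor, rose by 1.15 ± 0.101 and Ascl2, a placental factor, was at least 2.37-fold higher; neither passed without the probe sets that can match several transcripts (adjusted p = 0.0913 and 0.138). In the IGF axis 4 of 16 tested genes were higher and 4 lower, with a median of -0.04, and 2 and 10 with control scaling. Without control scaling 2 were at least 2-fold higher and 3 at least 2-fold lower. Differences over this list ran from -3.26 to 4.93, so its largest difference was a rise. Igfbp4, a binding protein that holds back IGF, gave 3775 and 3464 in wild-type and 263 and 498 in double null cells (-3.26 ± 0.229), and the growth factors Igf1 (-1.51 ± 0.158) and Igf2 (-1.30 ± 0.189) were lower too. Of 15 tested cadherins and protocadherins 7 were higher and 5 lower (background 16.7% and 22.3%), with a median of 0.27. The counts were 2 and 8 with control scaling. The higher ones were 4 without double null array 2 and the lower ones 3 without wild-type array 2. Pcdh17 was at least 9.54-fold lower and Pcdh9 fell (-1.90 ± 0.174), while N-cadherin, Cdh2, rose (0.64 ± 0.0901; 0.12 with control scaling, adjusted p = 0.267).

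The other large falls were those of single genes of varied function. Parp3, a poly(ADP-ribose) polymerase of DNA repair, gave 5915 and 5667 in wild-type and 583 and 653 in double null cells (-3.20 ± 0.0998, adjusted p = 1.03e-08). Chromosome 9, where it lies, had a median difference of 0.18 over 650 tested genes, the highest of the autosomes, with 34.2% of them higher and 9.08% lower. Plod2, Cnn1, Tbx18, Me1 and Slc25a20 lie there too and kept their calls after each chromosome was centred. Spry1, an inhibitor of growth factor signalling, gave 3333 and 3338 in wild-type and 649.5 and 399.8 in double null cells (-2.67 ± 0.192). Pdzrn3, a ubiquitin ligase, gave 3750.4 and 3903 in wild-type and 596 and 592 in double null cells (-2.65 ± 0.0928). Gnai1, an inhibitory G protein subunit, fell by a like amount (-2.61 ± 0.174). So did Wnk4, a kinase of ion transport (-2.43 ± 0.159), and Pcbd1, a dehydratase of biopterin recycling (-2.75 ± 0.443). Gm6958 gave 5902 and 6642 in wild-type and 128 and 62.6 in double null cells, at least 21.5-fold lower. For Spry1 and Gnai1 the FIH null arrays were also low (783 and 684; 820.3 and 915), and their differences from double null cells did not pass (adjusted p = 0.059 and 0.121). FIH null cells were low for Pcbd1 (221.7 and 47.4) and Wnk4 (859.5 and 962) too. Double null cells differed from them by 1.68 (adjusted p = 0.0123) and -1.03 (adjusted p = 0.000561). Parp3 and Pdzrn3 were not lower in FIH null than in wild-type cells.

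Some genes set the double null cells apart from wild-type, VHL null and FIH null cells alike: 798 were higher and 695 lower in all 3 tests, together 12.9% of the tested genes. Ranked by the smallest of their 3 differences, the first 5 upward were Pycard, Tbx4, Armh4, Car9 and Aire. Pycard, the adaptor of the inflammasome, gave 49 and 97 in wild-type and 4160.3 and 4794 in double null cells, at least 15.4-fold higher by its brightest probe set, and 1.07 on the log2 scale by its other one. With a pseudocount of 1 or without double null array 1 or 2 the gene is read by the other probe set, at 1.15 (adjusted p = 0.2), 1.16 (adjusted p = 0.285) and 0.98 (adjusted p = 0.38). Armh4 gave 52 and 14 in wild-type and 1329 and 1260.3 in double null cells, at least 4.45-fold higher. Aire, the regulator of self-antigen display, gave 132 and 33.4 in wild-type and 2991 and 2825 in double null cells, at least 9.99-fold higher. The order rests on fitted differences from wild-type signals that are all under the cutoff, so it is no order of fold changes. Downward they were Hoxc8, Gm6958, Zfp945, Hoxc6 and Hoxc5. Zfp945, a zinc finger gene, was at least 3.38-fold lower by its brightest probe set. By its other one it was 0.07 higher on the log2 scale, so its direction is not settled.

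Markers of other cell types were read beside these results. Of 10 macrophage markers 7, Ptprc and Adgre1 among them, were under the cutoff on all 4 arrays, and none of the 3 tested passed. The summed signal of the 13 fibroblast markers on the array was 298300 to 309800 in wild-type and 324600 to 368700 in double null cells. Of the 11 tested ones 3 were higher and 3 lower. Pdgfra, a growth factor receptor, gave 777 and 1243 in wild-type and 160.4 and 189.8 in double null cells, at least 3.47-fold lower. Dcn, decorin, gave 588 and 632 in wild-type and 47.7 and 213 in double null cells, at least 2.1-fold lower. The 11 epithelial markers on the array summed to 11150 to 11400 in wild-type and 40830 to 48160 in double null cells, most of it Krt19. This keratin gave 7962 and 7557 in wild-type and 46125 and 39118 in double null cells (2.45 ± 0.0777), while Krt18 fell (-1.97 ± 0.163) and 7 of 11 epithelial markers, Cdh1 among them, were under the cutoff on all 4 arrays. In the cartilage and bone list Col2a1 was at least 7.42-fold lower and Col10a1 at least 14.7-fold higher (256 and 283 in wild-type and 4354 and 4187 in double null cells). Fabp4, an adipocyte marker, gave 330.3 and 403 in wild-type and 2153 and 1669 in double null cells (2.33 ± 0.237), with Adipoq and Lep under the cutoff. It was the only 1 of 3 tested adipocyte markers that passed. The median of the 3 was -0.25 and their lowest difference -1.35. Sox2, a neural marker, was at least 1.85-fold lower. Eif2s3y of the Y chromosome was 5492 and 5982 in wild-type and 8128 and 9404 in double null cells (0.61 ± 0.0845; 0.09 with control scaling). Of 3 tested endothelial markers 1 was lower, of 6 muscle markers 2 were higher with Myod1 and Myog under the cutoff, and of 9 neural markers 3 were higher and 3 lower. The part of the cells' origin in the other differences was not tested. In bulk RNA fewer cells of a type and less RNA per cell cannot be told apart.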

How the data were processed

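Total RNA of 8 fibroblast samples, 2 in each of 4 genotypes, was read on Affymetrix arrays of the mouse genome. The authors deposited MAS5 signal values, linear intensities scaled to a trimmed mean of 2500.01 on every array, per the labels and the values themselves; the version of the software is not given in the sources used here. From these, 24523 probe sets above 291.1 on at least 2 arrays were compared as log2(signal + 16) by limma (version 3.58.1, R version 4.3.3), with moderated variances that follow the mean signal, and adjusted by the Benjamini-Hochberg method. The script was tested on simulated data. Symbols came from the platform annotation, with 34945 probe sets naming 1 gene, 932 several and 9160 none; those without exactly 1 were not named. Genes named in the text are Vhl, Hif1an, the largest rises and falls of all genes, those from or to signals under the cutoff, list members with the smallest p in each direction, those apart from all other groups, and pathway and marker genes of the lists. Members and lists were chosen with earlier results of these data known. Equal replicate numbers did not pair arrays, since correlations of their deviations ran from -0.0157 to 0.0318 over 6 pairs of groups. The number of arrays limits the precision. Alternatives were other pseudocounts, filters, scalings, centrings, probe set rules, arrays in the fit and arrays left out.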

Additional observations from a re-analysis of the deposited data

How the results depend on the processing

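Of 162 named genes 145 kept direction and call under every alternative. With scaling to the hybridization controls 9089 genes passed, 1821 of them at least 2-fold, 5.567% of those called were higher, and Ep300 (-0.42) and Me1 (-0.045) changed sign. With the filter at the 75th percentile 339 genes passed 2-fold, with fewer genes tested. The higher genes were 55.99% of those called with median centring and 53.8% with centring per chromosome. Jag1 was -0.037 as the mean of its probe sets, and Zfp945 was 0.065, by its other probe set, in a fit of the 4 arrays alone. Leaving out 1 array at a time left 3219 to 3989 genes called against wild type, 2753 to 3328 against VHL null and 3579 to 4502 against FIH null cells. Same-numbered arrays share only a number, and with the replicate block 4778 genes were called against wild type, with no call of a named gene changed except that Hif1a passed (adjusted p = 0.0398). The medians of 25 of 29 gene lists kept their sign relative to all genes under every scaling; those of the IGF axis, NRF2, matrix and respiratory chain lists did not. With 2 arrays a group, small differences are measured poorly, as are signals near the cutoff.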

Other observations

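Among 5798 genes with more than 1 tested probe set, 2308 had probe sets that disagreed in the sign of the difference, and 621 called genes had another tested probe set of opposite sign. Probe sets without a single gene symbol made up 2835 of those tested, and 303 of these were higher and 393 lower in double null than in wild-type cells. Among autosomes, the lowest medians were -0.175 on chromosome 18, with 36.1% of its genes lower, and -0.149 on chromosome 15, with 30.4% lower. Chromosome 9 had the highest autosomal median, 0.181, and the 4 tested genes of chromosome Y had 0.47.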
